A study of Mus musculus with 16 samples.

Results

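The gene of muscle fructose 1,6-bisphosphatase, Fbp2, was examined together with 8 genes of glucose uptake and glycogen handling, namely Slc2a4, Hk2, Gys1, Gbe1, Ppp1r3c, Pygm, Phka1 and Gpd1. These 9 genes were found by gene symbol among the non-control probes of the arrays and were covered by 11 of 41174 probes, or 9 of 27745 gene names. Expression was measured in gastrocnemius, a mixed muscle of the calf, of male C57BL/6N mice on 16 two-color arrays, 1 for each mouse. All mice were 3 months old at the start and received for 8 weeks a corn-oil-based high-fat diet (cHF, about 35% lipid by weight) that contained 10 mg of rosiglitazone per kg, a drug that activates PPARγ. In 8 of them (cHF+F+ROSI) a concentrate of n-3 LC-PUFA replaced 15% of the dietary lipids, and in the other 8 (cHF+ROSI) it did not. Every mouse was fasted for 10 hours in the light phase, re-fed Chow diet overnight and killed the next morning, so that the muscle was sampled after a carbohydrate-rich meal. No group without rosiglitazone was analysed here, and the values therefore compare the addition of n-3 LC-PUFA to rosiglitazone only. Mice were housed in pairs, and the labels do not tie mice to cages.

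Glucose enters the muscle fibre through the insulin-responsive transporter GLUT4 and is trapped by phosphorylation by hexokinase 2. In the fed state much of it is stored as glycogen by glycogen synthase and the branching enzyme, and glycogen phosphorylase, switched on by phosphorylase kinase, releases it again. Fructose 1,6-bisphosphatase runs the step opposite to phosphofructokinase and lets muscle build glycogen from lactate and other short carbon units, while glycerol 3-phosphate dehydrogenase 1 links glycolysis to glycerolipid synthesis and to the transfer of reducing equivalents.

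The stretch of 250 bases before the annotated start of a gene was available from RefSeq (GRCm38.p6) for 7 of the 9 genes, not for Slc2a4 and Gpd1. Fbp2 is shown because it had the clearest difference between the diets, and Phka1 because its ratio had the most positive correlation with that of Fbp2 among the other members. The Fbp2 stretch lies on the minus strand at chr13:62858401-62858650 and that of Phka1 on the minus strand at chrX:102644247-102644496. Capitals mark the E-box sequences CAGCTG, a form recognised by myogenic factors, and CACGTG, a form recognised by USF factors, each of which reads the same on both strands.
Fbp2: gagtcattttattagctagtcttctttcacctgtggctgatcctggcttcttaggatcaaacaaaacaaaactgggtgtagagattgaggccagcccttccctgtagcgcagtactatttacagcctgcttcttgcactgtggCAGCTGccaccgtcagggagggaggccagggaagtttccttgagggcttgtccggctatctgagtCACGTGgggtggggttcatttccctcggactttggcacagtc
Phka1: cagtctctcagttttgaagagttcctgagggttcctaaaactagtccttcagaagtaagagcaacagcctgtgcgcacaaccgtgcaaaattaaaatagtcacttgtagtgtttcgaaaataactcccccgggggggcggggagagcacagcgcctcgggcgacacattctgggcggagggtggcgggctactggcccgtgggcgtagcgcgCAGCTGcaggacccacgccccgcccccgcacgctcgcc
Among 32851 windows of this length, 13% held CAGCTG and 6.02% held CACGTG. The Fbp2 window held 1 copy of each. CAGCTG was also present in the windows of Gys1, Phka1, Ppp1r3c and Pygm, and CACGTG in that of Ppp1r3c. The motif AGGTCA, the core sequence recognised by many nuclear receptors, was searched on both strands as well. It was in 14.0% of all windows and in 0 of these 7. These are matches of letters, and binding was not measured.

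Each value given below is the log2 ratio of a mouse (Cy5) to a pool of muscle RNA (Cy3) that was hybridised to every array, centred on each array, so that a value above 0 means more of the gene relative to the pool than was usual for probes of its brightness, and a difference of 1 is a 2-fold change. By the labels of these arrays, the pool held all diets and samples of a higher rosiglitazone dose. Levels of different genes cannot be compared on this scale, and in whole muscle fewer cells of a type and less RNA per cell cannot be told apart. Taken over all spots of an array, the median ratio of signal to background ranged from 2.33 to 3.64 in Cy5 and from 1.78 to 2.02 in Cy3, and the dimmest Cy5 array was that of cHF+ROSI replicate 1. All 8 skeletal muscle marker genes were well above background on 16 arrays. The 4 slides held 4 arrays each, with cHF+ROSI mice at positions 1 and 3 and cHF+F+ROSI mice at positions 2 and 4, so that array position and diet cannot be told apart. All 11 member probes passed the limit on signal over background, none was saturated, and their fold changes (cHF+F+ROSI minus cHF+ROSI) were tested by limma among 19398 probes.

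Fbp2 was the member that differed most between the diets. In the cHF+ROSI mice its log2 ratios were -0.17, 0.08, 0.13, 0.09, 0.03, -0.26, 0.42 and 0.13 for replicates 1 to 8. In the cHF+F+ROSI mice they were 0.35, 1.08, 0.41, 0.61, 0.56, 0.52, 0.58 and 0.58. The groups overlapped through 1 mouse, cHF+ROSI replicate 7, which lay above cHF+F+ROSI replicates 1 and 3, and 6 of 8 cHF+F+ROSI mice lay above every cHF+ROSI mouse. The mean was 0.59 ± 0.22 (SD, n = 8) with n-3 LC-PUFA and 0.057 ± 0.21 (SD, n = 8) without. The log2 fold change was 0.53 (standard error 0.10), that is a 1.44-fold higher level with a 95% interval from 1.25-fold to 1.67-fold. An exact permutation test (two-sided, all 12870 splits of the mice) gave p = 4.66e-04. Limma gave an unadjusted p of 5.03e-05, the tenth smallest of all probes, and an adjusted p of 0.0939, which did not pass 0.05. The probe lies on chromosome 13 at 62859115 to 62863630 on the minus strand of the mm8 assembly used by the files. It spans 4516 bases there, so the probe was mapped across at least 1 intron.

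The difference in Fbp2 had the same sign on 4 of 4 slides, with 0.79, 0.48, 0.66 and 0.19 on slides 1 to 4 (2 mice per group on each). With slide as a block the adjusted p was 0.176. An adjusted p below 0.05 was reached for Fbp2 when the signals processed by Feature Extraction were used (0.0495), with array quality weights (0.0366) and when cHF+ROSI replicate 7 was left out (0.0441), so its call depended on the processing and on 1 mouse. The highest mouse, cHF+F+ROSI replicate 2, carried part of the value. Without it the log2 fold change was 0.46. Without this mouse and the dim array together, a setting chosen after the data were seen, it was 0.43 (adjusted p = 0.0915 from limma). In the Cy5 channel alone the log2 fold change was 0.60. The Cy3 signal of the probe, which came from the same pool on every array, differed by 0.019 between the arrays of the groups. Fbp2 is among the genes that the study listed for this same comparison, so its difference on these mice is not independent evidence of that listing.

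**Figure D1:**
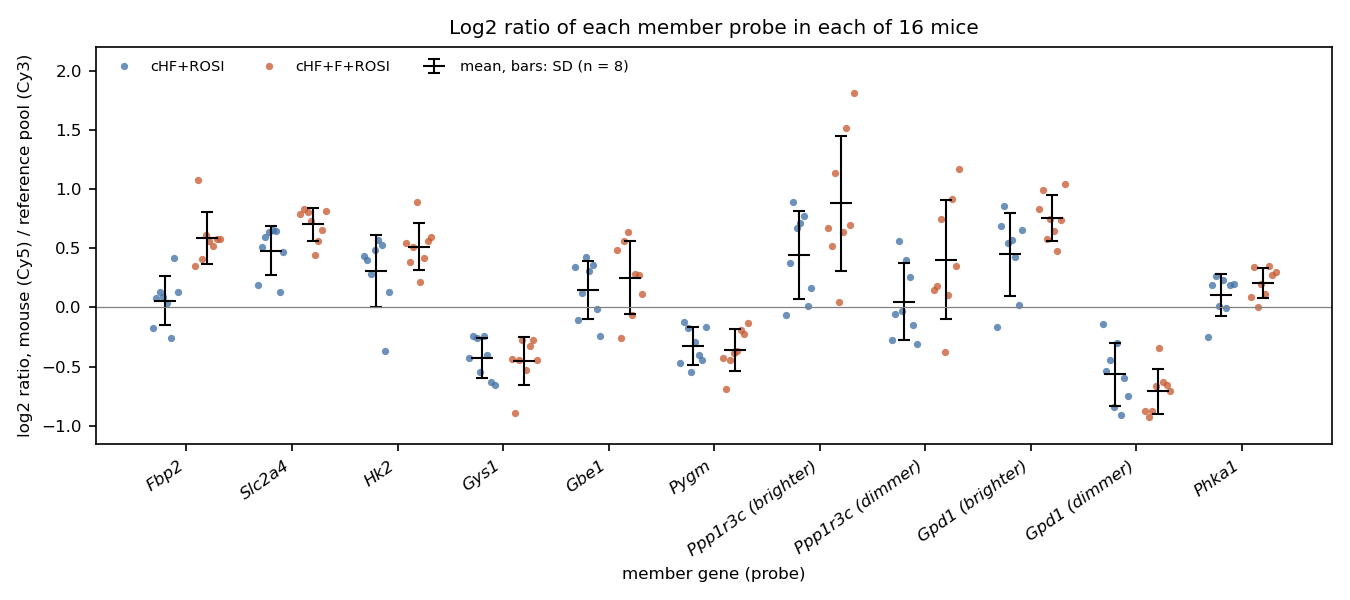
Log2 ratio of each member probe (vertical axis, mouse over reference pool) in each mouse, with cHF+ROSI in blue, cHF+F+ROSI in orange, horizontal marks for means and bars for SD (n = 8 per group). For Fbp2, 6 of 8 cHF+F+ROSI mice lie above the highest cHF+ROSI mouse, whereas for Gys1 and Pygm none does.

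Of the genes of glucose uptake and phosphorylation, Slc2a4, which encodes GLUT4, was measured by 1 probe printed in 10 spots (chromosome 11, 69758766 to 69758825, mm8). Its log2 ratios were 0.19, 0.51, 0.60, 0.64, 0.66, 0.64, 0.13 and 0.47 in cHF+ROSI replicates 1 to 8. They were 0.79, 0.83, 0.80, 0.73, 0.44, 0.56, 0.65 and 0.81 in cHF+F+ROSI replicates 1 to 8. Replicates 1 and 7 were the low cHF+ROSI mice, 5 of 8 cHF+F+ROSI mice lay above every cHF+ROSI mouse, and the groups overlapped. The log2 fold change was 0.22 (standard error 0.084, adjusted p = 0.571 from limma), or 1.17-fold with a 95% interval from 1.03-fold to 1.32-fold. By exact permutation (two-sided) p was 0.0214. The 10 spots had log2 fold changes between 0.16 and 0.32. On the slides the difference was 0.47, -0.029, -0.045 and 0.50, so the higher mean came from slides 1 and 4, which also held the low cHF+ROSI mice. With scale normalization between arrays the log2 fold change turned to -0.055, and without the dim array and cHF+F+ROSI replicate 2 the unadjusted limma p was 0.0670.

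Hk2, encoding hexokinase 2, was measured on chromosome 6 at 82690720 to 82690779 (mm8). Its log2 ratio ranged from -0.37 (cHF+ROSI replicate 7) over a median of 0.42 to 0.57 in the cHF+ROSI mice. In the cHF+F+ROSI mice it ranged from 0.21 over a median of 0.53 to 0.89. The difference of 0.21 (standard error 0.12, adjusted p = 0.726 from limma) did not exceed the spread between mice (exact two-sided permutation test, p = 0.130). The Cy3 signal of this probe varied by an SD of 0.29 (log2) over the 16 arrays, although the pool was the same, and 0.876% of the probes had a larger SD. On the array of cHF+F+ROSI replicate 2 it was 13.02 (log2), and on the other arrays between 13.6 and 14.3. In the Cy5 channel alone the log2 fold change of Hk2 was -0.024, while that of its Cy3 signal was -0.23. The part of the reference spot in the ratio of Hk2 was not tested.

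Of the glycogen synthesis genes, Gys1, the muscle glycogen synthase (chromosome 7, 45323618 to 45323677, mm8), had log2 ratios between -0.66 and -0.24 (median -0.42) in the cHF+ROSI mice. In the cHF+F+ROSI mice they lay between -0.89 and -0.27 (median -0.44). The log2 fold change was -0.026 with a 95% interval from -0.21 to 0.16 (adjusted p = 0.975 from limma). Gbe1, the branching enzyme (chromosome 16, 70452275 to 70452334, mm8), had log2 ratios from -0.24 to 0.42 (median 0.22) without and from -0.26 to 0.64 (median 0.28) with n-3 LC-PUFA. Its log2 fold change was 0.10 with a 95% interval from -0.17 to 0.37 (adjusted p = 0.898 from limma). In both genes cHF+F+ROSI replicate 2 had the lowest value of its group.

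Ppp1r3c encodes a targeting subunit that brings protein phosphatase 1 to glycogen. It was the most variable member, and its probes lay on chromosome 19 at 36797111 to 36797170 and at 36798441 to 36798500 (mm8). By the brighter probe the log2 ratios were -0.067, 0.38, 0.89, 0.67, 0.72, 0.77, 0.011 and 0.16 in cHF+ROSI replicates 1 to 8. In cHF+F+ROSI replicates 1 to 8 they were 0.67, 0.52, 1.14, 0.049, 0.64, 1.51, 0.70 and 1.81. The highest 3 mice (replicates 8, 6 and 3) were all in the cHF+F+ROSI group, the remaining 5 lay within the range of the cHF+ROSI mice, and the SD of 0.57 exceeded that of 0.37 in the cHF+ROSI group. The log2 fold change was 0.44 (standard error 0.22, adjusted p = 0.684 from limma) by this probe and 0.36 (standard error 0.19, adjusted p = 0.710 from limma) by the dimmer one. Both intervals reached below 0, from -0.019 to 0.90 and from -0.049 to 0.76. The probes gave the same order of mice to a large extent, with r = 0.95 over 16 mice after removal of the group means, and their log2 fold changes differed by 0.083 (exact two-sided permutation test, p = 0.276).

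Pygm, the muscle glycogen phosphorylase (chromosome 19, 6397893 to 6398064, mm8), had log2 ratios from -0.55 to -0.12 in the cHF+ROSI mice and, with n-3 LC-PUFA, from -0.69 (again cHF+F+ROSI replicate 2) to -0.13. Its log2 fold change was -0.029, with a 95% interval from -0.20 to 0.14 (adjusted p = 0.967 from limma). Phka1, the muscle α subunit of phosphorylase kinase (chromosome X, 98720193 to 98723509, mm8), ranged from -0.25 (cHF+ROSI replicate 1, the dim array) to 0.27 without and from 0.0046 to 0.35 with n-3 LC-PUFA. Its log2 fold change was 0.10 with a 95% interval from -0.052 to 0.26 (adjusted p = 0.794 from limma).

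Gpd1, the cytosolic glycerol 3-phosphate dehydrogenase, was measured by a bright probe (chromosome 15, 99552937 to 99552996, mm8) and by a dimmer one that spans 688 bases (99550573 to 99551260). By the bright probe the log2 ratios were -0.17, 0.69, 0.86, 0.54, 0.57, 0.43, 0.019 and 0.65 in cHF+ROSI replicates 1 to 8. They were 0.83, 0.99, 0.58, 0.75, 0.64, 0.48, 0.74 and 1.04 in cHF+F+ROSI replicates 1 to 8. Replicates 1 and 7 were low in the cHF+ROSI group, as for Slc2a4, and 8 of 8 cHF+F+ROSI mice exceeded the mean of the cHF+ROSI group. The difference was 0.31 on the log2 scale (standard error 0.13) with an adjusted p of 0.622 in limma. By exact permutation (two-sided) p was 0.0443. The unadjusted limma p rose from 0.0301 to 0.0627 without cHF+ROSI replicate 1, to 0.0688 without cHF+ROSI replicate 7, to 0.0592 without cHF+F+ROSI replicate 2 and to 0.0625 without cHF+F+ROSI replicate 8, so it rested on single mice. With both the dim array and cHF+F+ROSI replicate 2 left out, the value was 0.18 and its unadjusted p in limma 0.117. On slides 1 to 4 the difference was 0.52, -0.0068, 0.11 and 0.60.

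The dimmer Gpd1 probe went the other way, with log2 ratios from -0.91 to -0.14 without and from -0.92 to -0.34 with n-3 LC-PUFA and a difference of -0.14 (standard error 0.11), for which limma gave an adjusted p of 0.806. The log2 fold changes of the Gpd1 probes differed by 0.45 (exact two-sided permutation test, p = 0.0437). Over the 16 mice the probes had r = -0.35 after removal of the group means. No direction for the gene can therefore be given from both of its probes.

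The members were chosen with results of these mice known, so the counts below describe them and are not independent evidence of a difference. Taking the brightest probe of each gene, 7 of 9 members had a log2 fold change above 0, and their median was 0.21. Gpd1 is counted by its brighter probe, while its dimmer probe was lower with n-3 LC-PUFA. Over all probes tested, 49.2% lay above 0 and the median was -0.0014. By limma 3 of the 9 genes, Fbp2, Slc2a4 and Gpd1, had an unadjusted p of up to 0.05, all with higher values in the cHF+F+ROSI mice, beside 7.46% of all probes in either direction, 3.5% higher and 3.96% lower. For 0 of 11 member probes were the groups without overlap, beside 0.0464% of probes with higher and 0.0309% with lower values. At an adjusted p of 0.05 no member passed in limma, beside 0.0155% of all probes. The count at an unadjusted p of 0.05 was 3 by the methods' t-test too (7.55% of all probes), with 0 after adjustment (0.0103%).

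**Figure D2:**
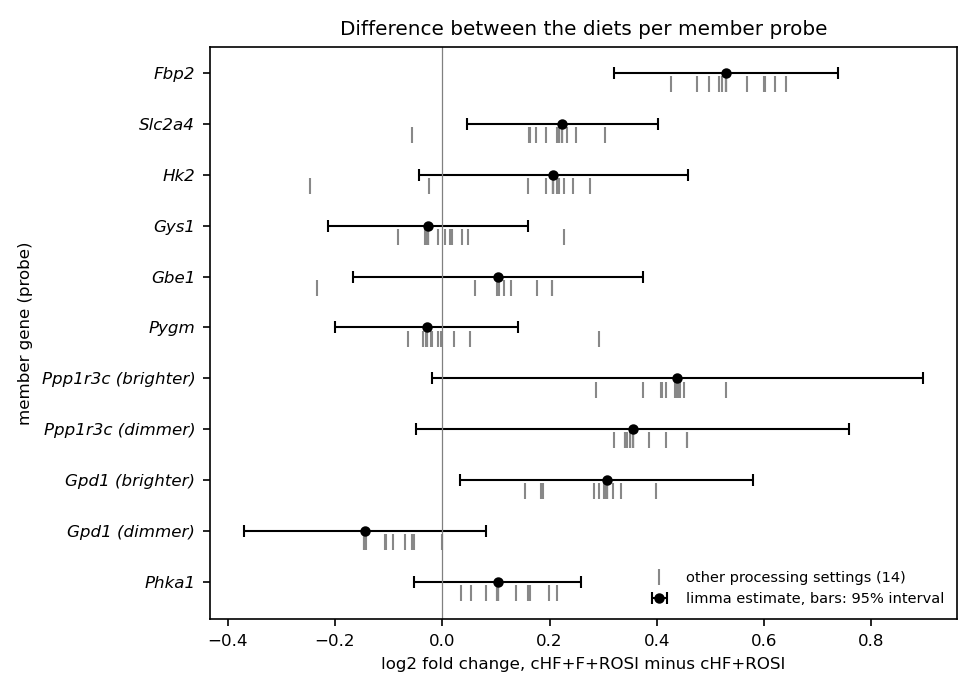
Log2 fold change of each member probe (horizontal axis, cHF+F+ROSI minus cHF+ROSI) with its 95% interval from limma as a black point and bar, and the values under 14 other processing settings as grey ticks. The intervals of Fbp2, Slc2a4 and the brighter Gpd1 probe lie above 0, and the grey ticks of Slc2a4, Hk2, Gys1, Gbe1 and Pygm fall on both sides of 0.

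The other genes of these pathways were given by 3 lists without the members. Of 18 tested genes of glucose uptake and phosphorylation, 0 passed an adjusted p of 0.05 by limma, 2 had a higher and 0 a lower value at an unadjusted p of 0.05, and the median log2 fold change was -0.0044. The higher genes were Rab10, a small GTPase of GLUT4 vesicle transport, with 0.20 (standard error 0.079), and Lnpep, the aminopeptidase of the GLUT4 vesicle, with 0.17 (standard error 0.075). A second Lnpep probe had -0.0076. The next was Txnip, an inhibitor of glucose uptake, with -0.25 (adjusted p = 0.709 from limma) by its brighter and 0.048 by its other probe.

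Of 20 tested genes of glycogen metabolism, 0 passed the adjusted p by limma, and at an unadjusted p of 0.05 3 were higher and 2 lower, with a median of 0.055. Ugp2, which makes the UDP-glucose used for glycogen, had 0.15 (standard error 0.062, adjusted p = 0.613 from limma), and Gyg, the primer protein glycogenin, had -0.19 (standard error 0.077, adjusted p = 0.616 from limma). Phka2, the liver α subunit of phosphorylase kinase, had 0.11 (standard error 0.048). Gaa, the lysosomal glucosidase, with -0.17, and Ppp1r3a, the main muscle glycogen-targeting subunit, with 0.13, complete the 5 and were named after their values were seen. A second Ppp1r3a probe had 7.47e-05.

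Of 19 tested genes of the fructose bisphosphate step, glycerol 3-phosphate and gluconeogenesis, 0 passed the adjusted p by limma, 3 were higher and 0 lower at an unadjusted p of 0.05, and the median was 0.027. Pfkfb1, a bifunctional enzyme that makes and breaks the phosphofructokinase activator fructose 2,6-bisphosphate, had 0.18 (standard error 0.055, adjusted p = 0.406 from limma). Gpi1, phosphoglucose isomerase, had 0.24 (standard error 0.095), and Pcx, pyruvate carboxylase, had 0.21 (standard error 0.084). With 1 probe for each of all 13575 genes tested, 8.37% reached this unadjusted p and 48.6% had a fold change above 0, against 11.1% and 44.4% in the first list, 25% and 75% in the second and 15.8% and 63.2% in the third. Without the dim array and cHF+F+ROSI replicate 2, the counts at an unadjusted p of 0.05 were 2, 1 and 1, beside 6.28% of all probes.

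**Figure D3:**
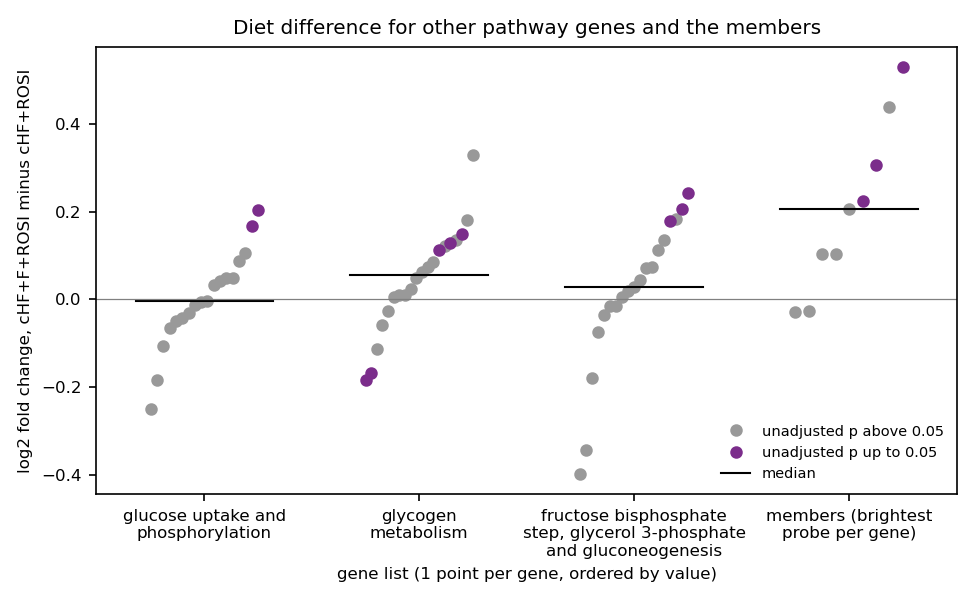
Log2 fold change (vertical axis, cHF+F+ROSI minus cHF+ROSI) of each tested gene of the 3 pathway lists and of the 9 members, 1 point per gene with purple for an unadjusted limma p of up to 0.05 and a line at the median. The medians are -0.0044, 0.055 and 0.027 for the lists and 0.21 for the members, which were chosen with results of these mice known.

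How Fbp2 varied with the other members from mouse to mouse was examined within the diet groups, since the difference between the diets would otherwise set the relation. In a limma fit with diet and the Fbp2 ratio as terms, 4 of the 8 other genes had an unadjusted p of up to 0.05, beside 8.83% of the 19397 other probes (4.67% with a negative and 4.17% with a positive slope). After adjustment 0 of 8 passed, beside 0% of the probes. The slope was negative for Gbe1 (r = -0.65 after removal of the group means, adjusted p = 0.289 from limma), Gys1 (r = -0.57, adjusted p = 0.458 from limma) and Hk2 (r = -0.53, adjusted p = 0.482 from limma). It was positive for Phka1 (r = 0.62, adjusted p = 0.374 from limma). The r of Slc2a4, Pygm, Ppp1r3c and Gpd1 lay between -0.26 and 0.23. Without the dim array and cHF+F+ROSI replicate 2, the unadjusted p was up to 0.05 for Slc2a4 (r = -0.68, adjusted p = 0.348 from limma) and Hk2 (r = -0.58, adjusted p = 0.423 from limma), and not for Gbe1 (r = -0.43), Gys1 (r = -0.23) or Phka1 (r = 0.54). Within the groups Slc2a4 gave no common direction. In the cHF+ROSI mice r was -0.35 (exact permutation p = 0.397) and rho -0.52 (exact permutation p = 0.197), turning to r = 0.78 without replicates 6 and 7. With n-3 LC-PUFA r was 0.20 (exact permutation p = 0.641) and rho 0.24 (exact permutation p = 0.582), turning to r = -0.21 without replicates 1 and 2.

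Within the groups, 16 relations (8 genes in 2 groups) were computed, and 2 had an exact permutation p of up to 0.05. These exact tests were not run over all probes, so the count has no background beside it. Hk2 was related to Fbp2 in the cHF+ROSI mice with r = -0.81 (exact permutation p = 0.0134) and rho = -0.83 (exact permutation p = 0.0154). Without the 2 mice farthest from the median of Fbp2, replicates 6 and 7, r was -0.45. Leaving out the extremes of Fbp2 narrows its range, which can weaken r by itself. The check therefore cannot tell whether the relation rested on those mice. In the cHF+F+ROSI mice r was -0.16 (exact permutation p = 0.632) and rho 0.17 (exact permutation p = 0.703).

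Gbe1 and Fbp2 had r = -0.72 (exact permutation p = 0.0316) and rho = -0.38 (exact permutation p = 0.360) in the cHF+F+ROSI mice. Without replicates 1 and 2 r was -0.24. In the cHF+ROSI mice r was -0.56 (exact permutation p = 0.147), rho -0.60 (exact permutation p = 0.132) and r without the 2 farthest mice -0.51. Both groups thus had a negative r, and the one that passed the test was weaker without the 2 mice farthest in Fbp2.

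Gys1 had r = -0.74 (exact permutation p = 0.0993) and rho = -0.071 (exact permutation p = 0.882) in the cHF+F+ROSI mice, and r = 0.37 without the 2 farthest mice. In the cHF+ROSI mice r was -0.35 (exact permutation p = 0.416) and rho -0.52 (exact permutation p = 0.197), and r without the farthest mice was -0.055. The negative relation of Gys1 rested on cHF+F+ROSI replicate 2, which had the highest Fbp2 and the lowest Gys1 of all mice.

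Phka1 kept a positive r in both groups. It was 0.65 (exact permutation p = 0.103) in the cHF+ROSI mice with rho 0.57 (exact permutation p = 0.151), and 0.62 (exact permutation p = 0.0784) in the cHF+F+ROSI mice with rho 0.52 (exact permutation p = 0.197). Without the 2 farthest mice of each group r was 0.87 and 0.60. No single value passed 0.05 within a group.

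**Figure D4:**
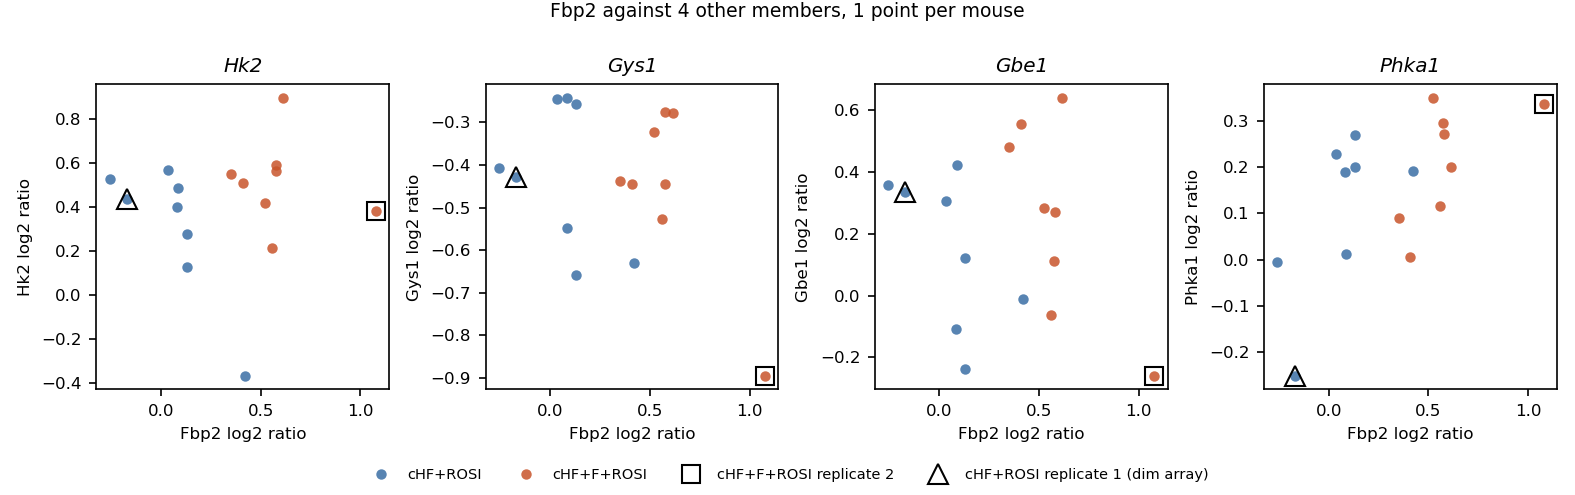
Log2 ratio of Hk2, Gys1, Gbe1 and Phka1 (vertical axes) against that of Fbp2 (horizontal axes) in each of 16 mice, with cHF+ROSI in blue and cHF+F+ROSI in orange, and a square for cHF+F+ROSI replicate 2 and a triangle for the dim array of cHF+ROSI replicate 1. The squared mouse has the highest Fbp2 value of 1.08 and the lowest Gys1 and Gbe1 values of -0.89 and -0.26.

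Marker genes of cell and fibre types were set beside the members. Of the slow fibre markers 0 of 9 had an unadjusted limma p of up to 0.05. Their mean log2 ratio ranged from -1.23 to 0.61 without and from -2.14 to 0.24 with n-3 LC-PUFA. Of these 9, 8 had a lower mean with n-3 LC-PUFA. The share above 0 was 11.1%, beside 48.6% of all genes. The median log2 fold change of the list was -0.43. Myh7, the slow myosin heavy chain, had -0.54, and the one above 0, Myl3, had 0.031 (both named after their values were seen). The 8 of 9 holds for the brightest probe of each gene. A second Myl3 probe had -0.24, while a further probe of Myoz2 had 0.017 and 1 of Atp2a2 had 0.097. The second probes of Myh7, Tnni1 and Tpm3 were lower with n-3 LC-PUFA as well. The smallest adjusted p of the list was 0.723 in limma. The mouse with the lowest slow fibre mean, cHF+F+ROSI replicate 2, was the one with the highest Fbp2. Its slow fibre mean of -2.14 lay apart from the next lowest of its group, -0.61. How far the lower values of the list rest on this mouse was not tested. Within the cHF+F+ROSI mice Fbp2 and the slow fibre mean had r = -0.92 (exact permutation p = 0.0156) and rho = -0.64 (exact permutation p = 0.0962), with r = -0.25 without the 2 mice farthest in slow fibre mean. In the cHF+ROSI mice r was -0.25 (exact permutation p = 0.549) and rho -0.31 (exact permutation p = 0.462). This was among 162 relations computed between 9 members and 9 lists in 2 groups, 14 of which had an exact permutation p of up to 0.05. The same count was not made for other genes, so the 14 have no background beside them. The part of fibre composition in the values of Fbp2 was not tested. The smallest p of the 14 was that of Gys1 with the immediate early genes in the cHF+F+ROSI mice (r = -0.95, exact permutation p = 0.00399). Its rho was -0.81 (exact permutation p = 0.0218), and r was -0.74 without the 2 mice farthest in that list. In the cHF+ROSI mice this r was 0.43 (exact permutation p = 0.307). Among the 14, Gys1 with the skeletal muscle mean was the pair found in both groups. There r was 0.74 (exact permutation p = 0.0432) with rho 0.55 (exact permutation p = 0.171) in the cHF+ROSI mice, and 0.92 (exact permutation p = 0.0135) with rho 0.60 (exact permutation p = 0.132) in the cHF+F+ROSI mice. Without the 2 farthest mice r was 0.52 and 0.30. Ppp1r3c had r = -0.83 (exact permutation p = 0.0105) and rho = -0.86 (exact permutation p = 0.0107) with the 3 liver markers in the cHF+F+ROSI mice, with r = -0.75 without the 2 farthest, and r = -0.58 (exact permutation p = 0.143) in the cHF+ROSI mice.

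The remaining lists were counted by an unadjusted limma p of up to 0.05. There were 0 of 8 skeletal muscle, 0 of 10 fast fibre, 0 of 9 adipocyte, 0 of 3 liver, 0 of 3 red blood cell and 0 of 7 macrophage markers. A log2 fold change above 0 was found for 50% of the skeletal muscle, 50% of the fast fibre and 77.8% of the adipocyte markers. For the liver, red blood cell and macrophage markers the share was 33.3%, 100% and 42.9%. It was 28.6% of the endothelial markers and 20% of the immediate early genes, beside 48.6% of all genes. Ttr of the liver and Itgam of the macrophage list were too weak to be tested, and Alb was not among the probes. The mean log2 ratio of the fast fibre markers ranged from 0.19 to 0.61 and from 0.32 to 0.54 in the cHF+ROSI and cHF+F+ROSI mice, and that of the skeletal muscle markers from 0.093 to 0.43 and from -0.13 to 0.34. That of the adipocyte markers ranged from -0.90 to 0.23 and from -1.20 to 0.76, that of the liver markers from -2.15 to 0.90 and from -1.33 to 1.05, that of the red blood cell markers from -0.78 to -0.077 and from -0.74 to 1.19, and that of the macrophage markers from -0.46 to 0.41 and from -0.34 to 0.26. Of 7 endothelial markers 3 were lower with n-3 LC-PUFA, Emcn, Cdh5 and Kdr (named after their values were seen), with log2 fold changes of -0.24, -0.16 and -0.27, a share of 42.9% beside 8.37% of all genes. The smallest adjusted p of the list was 0.293 in limma. Of the other endothelial markers, Pecam1 had -0.16, Tek -0.063, Tie1 0.013 and Vwf 0.20. The mean of the endothelial list ranged from -0.26 to 0.068 and from -0.26 to -0.016. The list had r = 0.86 with Hk2 (exact permutation p = 0.00650) and rho = 0.79 (exact permutation p = 0.0279) in the cHF+ROSI mice. Without the 2 mice farthest in the list r was 0.54. Fbp2 had r = -0.81 (exact permutation p = 0.0171) and rho = -0.83 (exact permutation p = 0.0154) with the same list in the cHF+ROSI mice, and r = -0.82 without the 2 farthest mice. In the cHF+F+ROSI mice it had r = 0.11 (exact permutation p = 0.751) and rho = 0.36 (exact permutation p = 0.389), and Hk2 had r = 0.60 (exact permutation p = 0.120). Of 10 immediate early genes 1, Jun, was lower, with -0.31, and their mean ranged from -0.19 to 1.15 and from -0.30 to 1.20. The part of these cells in the members' values was not tested.

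Among the members other than Fbp2, 28 pairs were compared in each group, 6 of the 56 relations had an exact permutation p of up to 0.05, and no pair did so in both groups. A share over pairs of other genes was not computed. Slc2a4 and Ppp1r3c had r = 0.90 (exact permutation p = 0.00184) and rho = 0.81 (exact permutation p = 0.0218) in the cHF+ROSI mice, and r = 0.87 without the 2 mice farthest in Slc2a4. In the cHF+F+ROSI mice r was 0.035 (exact permutation p = 0.934) and rho 0.048 (exact permutation p = 0.935). The difference between the groups was not tested.

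The genes whose ratio followed that of Fbp2 most closely were taken from 13495 genes by r over 16 mice after removal of the group means. The highest r was that of 2810428I15Rik (Rex1bd in RefSeq) with 0.88. Tnnt2, encoding cardiac troponin T, followed with 0.87, then 2210011C24Rik with 0.86, Asrgl1, an asparaginase, with 0.86, and D11Ertd497e (Cdkn2aipnl in RefSeq) with 0.85. The lowest r was that of Slc38a3, a transporter of glutamine, with -0.86. Pacs2 had -0.86, Tra2a, a splicing factor, -0.84, Vamp2, a vesicle SNARE protein used in GLUT4 transport, -0.83, and Qk, an RNA-binding protein, -0.83. The adjusted p of these slopes lay between 0.101 and 0.168 in limma. Without the dim array and cHF+F+ROSI replicate 2, r lay between 0.70 and 0.89 for the first 5 and between -0.70 and -0.61 for the last 5.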

How the data were processed

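Gastrocnemius RNA of 16 mice was hybridised against a common pool on Agilent 4 x 44K arrays. The authors deposited spot intensities from Feature Extraction (10.5.1.1 per the file headers, 10.5.5.1 per the processing notes in the labels), with scans at 2 laser powers joined. They also deposited a table of normalized log2 values made in GeneMaths XT, used here as an alternative.

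Median signals were background-corrected by normexp (offset 50). Control spots and outlier-flagged spots were left out (8 flagged spots were of Slc2a4). A probe was kept where its signal averaged 2 or more times the background in Cy5 and in Cy3, log2 ratios were loess-normalized within arrays, and spots of a probe were averaged. Groups were compared in R 4.3.3 with limma 3.58.1 (lmFit, eBayes), and p-values of the 19398 probes were adjusted by Benjamini-Hochberg. The chain was tested on simulated data. No 2 arrays were identical, and the number of arrays limits precision. The p-values measure the spread between mice.

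The members, lists and tests were chosen with earlier results of these data known. Named genes were all members, the 3 genes with the smallest p of each pathway list, and the 5 highest and 5 lowest in r with Fbp2. The alternatives were background correction, normalization, the Cy5 channel alone, the authors' table, filters, outlier-flagged spots kept, a slide block, a replicate block, the methods' t-test, array weights, the mean of a gene's probes and each array left out. Probe names are those of the array design, and all 11 member accessions matched RefSeq. Probe sequences and proteins were not used here.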

Additional observations from a re-analysis of the deposited data

Results flagged for a closer look

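In 50 groups of 8 values (member probes, list means, the median signal of arrays and the Cy3 signal of Hk2), 9 single values lay apart from the rest of their group by Dixon's criterion, where chance gives about 2.5. The groups share mice and some genes, so the 9 are not independent, and their excess was not tested. Of these 9 values, 5 were those of cHF+F+ROSI replicate 2. It had the highest Fbp2 log2 ratio of 1.08 (next 0.61), the lowest Gys1 of -0.89 (next -0.53), the highest mean of immediate early genes of 1.20 (next 0.10), the lowest mean of skeletal muscle markers of -0.13 (next 0.16) and the lowest mean of slow fibre markers of -2.14 (next -0.61). The lowest Hk2 log2 ratio of the cHF+ROSI mice was -0.37 in replicate 7 (next 0.13). The mean of the immediate early genes was 1.15 in cHF+ROSI replicate 2 (next 0.42), and that of the red blood cell markers 1.19 in cHF+F+ROSI replicate 6 (next 0.062). The dim array of cHF+ROSI replicate 1 had a median Cy5 signal over background of 2.33 (next 3.02).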

How the results depend on the processing

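The log2 fold change of Fbp2 was above 0 under all 14 alternatives (0.43 to 0.64) and with each array left out (0.46 to 0.58, adjusted p in limma from 0.0441 to 0.207). Of the 14, the slide block and the replicate block are balanced, and the methods' t-test uses the same values. These settings could not change the fold change or the sign of any member probe. Its largest adjusted p was 0.743, with median centring. Signals processed by Feature Extraction gave 0.62 for Fbp2 and 0.014 for Gys1, and array quality weights gave 0.48 and 0.0053. In each, 1 member (Fbp2) passed an adjusted p of 0.05, beside 0.0979% and 0.0722% of all probes. Both Ppp1r3c probes, both Gpd1 probes and Phka1 kept their sign under all 14, but not their size. The bright Gpd1 probe was 0.15 with array quality weights and was not called there, with median centring, with scale normalization or with Cy5 alone. The dim one was -7.6e-04 with scale normalization, and Phka1 ranged from 0.034 to 0.21. Scale normalization turned Slc2a4 to -0.055, Hk2 to -0.25, Gys1 to 0.23, Gbe1 to -0.23 and Pygm to 0.29. Cy5 alone turned Hk2 to -0.024, Gys1 to 0.018 and Pygm to 0.021, and the authors' table turned Gys1 to 0.048 and Pygm to 0.051. Without the dim array and cHF+F+ROSI replicate 2, added after the data were seen, Gys1 was 0.037. With single arrays left out, Gys1 ranged from -0.059 to 0.037 and Pygm from -0.061 to 0.018. Hk2 was 0.11 without cHF+ROSI replicate 7, Gbe1 0.049 and 0.18 without cHF+F+ROSI replicates 4 and 2, Phka1 0.053 and the dim Gpd1 probe -0.084 without cHF+ROSI replicate 1. Members at an unadjusted p of 0.05 numbered 1 with median centring (4.23% of all probes), with scale normalization (4.93%) and without both those arrays (6.28%). They numbered 5 in the authors' table (7.98%) and 2 to 4 with single arrays left out (6.07% to 10.2%). Those at an adjusted p of 0.05 numbered 0 to 1 with single arrays left out (0.0155% to 0.0258% of all probes). Averaging the probes of a gene gave 1 gene of uptake, 3 of glycogen metabolism and 4 of the fructose bisphosphate list. With the brightest probe these counts were 2, 5 and 3. The share over all genes was not recorded for the averaged probes. Leaving out both arrays gave 1 of glycogen metabolism and 1 of the fructose bisphosphate list. The cause of these shifts was not tested.

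The relation of Fbp2 to the others also depended on the processing. Of the 8 other genes, 2 passed an unadjusted p of 0.05 in each of 6 settings. They were Gpd1 and Phka1 with median centring (15.4% of all probes) and in the authors' table (22%), Hk2 and Gbe1 with Cy5 alone (19.5%), Gbe1 and Phka1 with slide as a block (7.37%) and with array quality weights (4.55%), and Slc2a4 and Hk2 without both arrays (9.74%). The count was 0 on the Cy3 signals of the pool, for which no share over all probes is given. With single arrays left out it was 2 to 4. The share of all probes there was 8.22% to 9.98%, and higher only without cHF+F+ROSI replicate 2. At an adjusted p of 0.05, 4 passed with scale normalization (Hk2, Gbe1, Gpd1 and Phka1, beside 2773 probes in all) and 1, Phka1, in the authors' table (beside 739). The r of Phka1 was 0.23 with Cy5 alone, and that of Hk2 -0.092 with median centring. The r of Slc2a4 turned to 0.38 with median centring, 0.11 with Cy5 alone and 0.39 by the authors' values, and was -0.68 without both arrays. That of Gys1 turned to 0.029 with median centring, 0.44 with scale normalization and 0.091 on the Cy3 signals. That of Pygm turned to 0.35, 0.56 and 0.28 with median centring, scale normalization and the authors' table, and to 0.14 without both arrays. That of Ppp1r3c turned to 0.37 with scale normalization and 0.055 in the authors' table. That of Gpd1 was -0.24 without both arrays. On the Cy3 signals, where only technical variation of the pool is measured, r was 0.091 for Gys1, 0.081 for Gbe1 and -0.20 for Gpd1. With single arrays left out, r of Slc2a4 ranged from -0.35 to 0.22, that of Pygm from -0.32 to 0.24 and that of Gpd1 from 0.048 to 0.56.

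The labels do not say that replicate numbers pair the mice, and whether they do was not tested. Of the 8 same-numbered pairs, 4 had deviations that correlated above 0.1 (all 8 ranged from -0.34 to 0.73), and 4 shared a slide. Each cHF+ROSI mouse correlated best with its own number in 2 of 8 cases. With the replicate block Fbp2 kept 0.53 (adjusted p = 0.160 from limma), and 4 members passed an unadjusted p of 0.05, beside 7.36% of all probes. At that p 1 of the 8 genes was related to Fbp2, beside 4.43% of all probes, and r of Gpd1 turned to -0.11. The weak Cy3 signal of the pool limits ratios of dim probes.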
